A study of Mus musculus with 32 samples.

Results

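The enzymes that build coenzyme Q were examined in hearts of mice carrying 1 of 2 dominant mutations of CHCHD10 (C10), a small protein of the mitochondrial intermembrane space, with or without the inner-membrane protease OMA1. The members are a fixed list of 10 genes (Pdss1, Pdss2, Coq2, Coq3, Coq5, Coq6, Coq7, Coq8a, Coq8b and Coq9), found on the array through the annotation of its probe sets. Pdss1 was not analysed here because no annotated probe set carried its symbol, which left 9 of 10 members, each with 1 probe set, among 19505 genes tested. RNA of whole hearts was hybridised to 32 Clariom S Mouse arrays, 1 array per mouse, and expression is given throughout as the deposited log2 signal. There were 8 groups of 4 hearts. In the cohort aged 14 weeks these were C10 G58R OMA1-/-, C10 G58R OMA1+/-, C10 WT OMA1-/- and C10 WT OMA1+/-. In the cohort aged 20 weeks they were C10 S59L OMA1-/-, C10 S59L OMA1+/-, C10 WT OMA1-/- and C10 WT OMA1+/-. All hearts therefore lacked at least 1 copy of Oma1, and no heart had both. The mutations are numbered as in human CHCHD10 and were carried as heterozygous knock-ins, so every mutant heart retained 1 normal C10 allele. Most groups held 2 males and 2 females, but C10 WT OMA1-/- at 14 weeks held 3 males and 1 female and C10 G58R OMA1+/- held 1 male and 3 females. The C10 G58R OMA1-/- hearts came from survivors of a genotype that, per the study, is mostly lost before weaning.

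Coenzyme Q (ubiquinone) is the lipid that carries electrons from complex I, complex II and several other dehydrogenases to complex III in the mitochondrial inner membrane, and the heart, which depends on oxidative phosphorylation, is rich in it. Its prenyl tail is assembled by a Pdss1 and Pdss2 complex and joined to the ring precursor by Coq2. The ring is then hydroxylated and methylated by Coq6, Coq5, Coq7 and Coq3, which act in a complex at the inner membrane with the lipid-binding protein Coq9. Coq8a and Coq8b are paralogous kinase-like ATPases needed for the pathway, and loss of either in humans causes coenzyme Q deficiency, with ataxia and muscle disease prominent for COQ8A and kidney disease for COQ8B.

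Array medians lay between 6.54 and 6.75, and all 9 members except Coq8b were above the empirical background of 6.59 on all 32 arrays. That background is the 95th percentile of the mean signals of 1412 olfactory and vomeronasal receptor genes. Coq8b was below it on 3 arrays, all of C10 WT OMA1+/- hearts at 20 weeks. The Oma1 signal was 9.20 to 9.48 in C10 WT OMA1-/- hearts, against 9.73 to 10.69 in C10 WT OMA1+/- hearts at 14 weeks, and its groups also did not overlap in C10 G58R hearts or in C10 WT hearts at 20 weeks. In C10 S59L hearts they did overlap, with 8.93 to 9.68 in OMA1-/- hearts and 9.36 to 10.26 in OMA1+/- hearts. The position of the Oma1 probes relative to the deletion is unknown here, so this checks the labels only in part. Cardiomyocyte markers were above background on every array. The mean signal of 5 adipocyte markers was 8.56 to 12.90 on 7 arrays and 4.66 to 7.13 on the other 25. The 7 were C10 G58R OMA1-/- replicate 1, C10 WT OMA1+/- replicates 1 to 3 at 14 weeks, C10 S59L OMA1-/- replicates 1 and 2, and C10 S59L OMA1+/- replicate 1.

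The 9 genes did not move as a block. Coq8b and Coq5 rose most, Coq6 rose less, and Coq8a fell in S59L hearts, where Coq9 also fell in the absence of OMA1, while Pdss2, Coq2 and Coq7 passed the test in no comparison of mutant with WT. In limma with Benjamini-Hochberg adjustment over all genes tested, at a threshold of 0.05, 4 of 9 members rose and none fell in C10 G58R OMA1-/- hearts relative to C10 WT OMA1-/- hearts (Coq3, Coq5, Coq6 and Coq8b), in a comparison where 33.6% of all genes were called (18.3% higher and 15.3% lower). In C10 G58R OMA1+/- hearts relative to C10 WT OMA1+/- hearts only Coq8b was called, and 1.98% of all genes were (1.51% higher and 0.472% lower). In C10 S59L OMA1-/- hearts 3 members rose (Coq5, Coq6 and Coq8b) and 2 fell (Coq8a and Coq9), against 29.8% of all genes (15.8% higher and 14% lower). In C10 S59L OMA1+/- hearts the same 3 rose and Coq8a fell, against 36.5% of all genes (18.6% higher and 17.9% lower). The median log2 fold change of the 9 members was 0.44 in C10 G58R OMA1-/-, 0.25 in C10 G58R OMA1+/-, -0.03 in C10 S59L OMA1-/- and 0.05 in C10 S59L OMA1+/- hearts, beside -0.10, -0.03, -0.10 and -0.15 over all genes tested in the same comparisons.

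**Figure D1:**
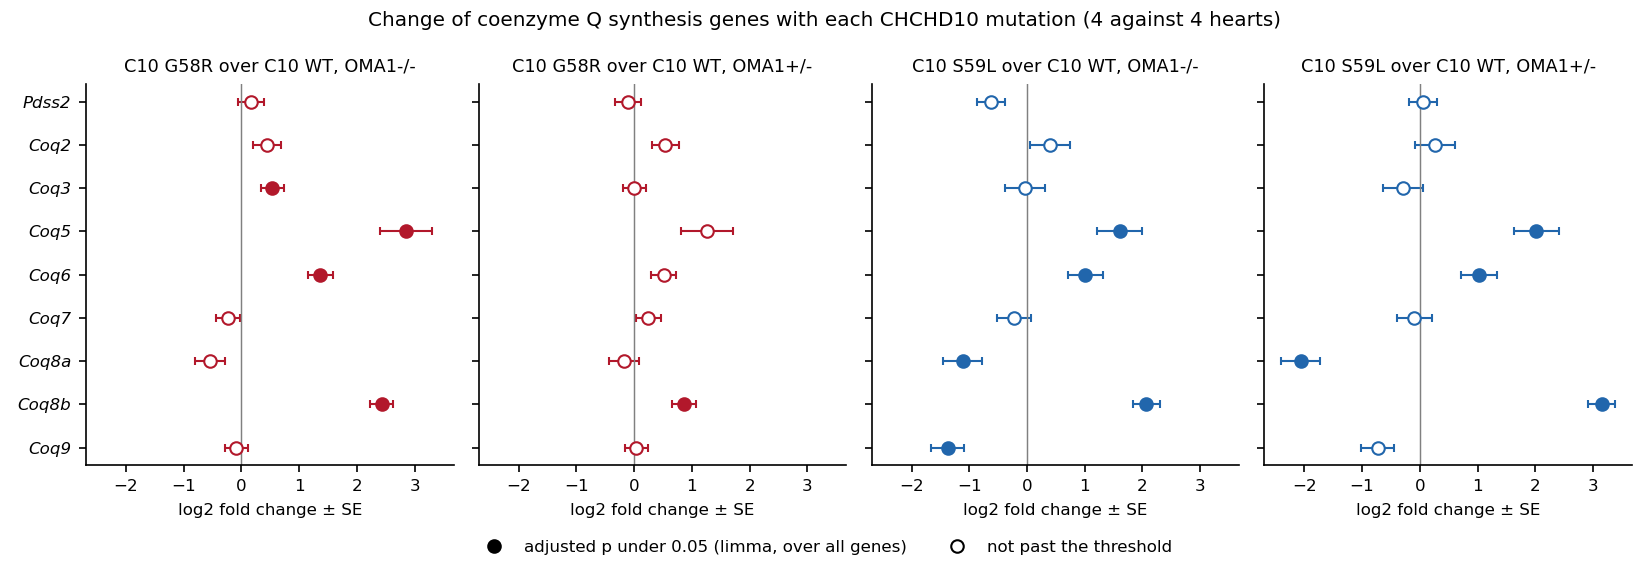
Log2 fold change (x axis, with its standard error) of each of the 9 measured genes (rows) in C10 mutant over C10 WT hearts, in 4 panels for the 2 mutations on each OMA1 background, 4 against 4 hearts. Filled points passed an adjusted p of 0.05 in limma: Coq8b is filled in all 4 panels, Coq5 and Coq6 in all but C10 G58R OMA1+/-, and Coq8a, on the negative side, only in the C10 S59L panels.

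The same comparisons moved markers of other cells of the heart. Of all genes, 18.3% were called higher and 15.3% lower in C10 G58R OMA1-/- hearts. The shares were 1.51% and 0.472% in C10 G58R OMA1+/- hearts. In C10 S59L hearts they were 15.8% and 14% without OMA1, and 18.6% and 17.9% with 1 Oma1 allele. Of 7 macrophage markers measured, 5 rose in C10 G58R OMA1-/-, 6 in C10 S59L OMA1-/- and 7 in C10 S59L OMA1+/- hearts, and none passed the test in C10 G58R OMA1+/- hearts. Their mean signal was 10.99 to 11.73 in C10 G58R OMA1-/- hearts against 8.78 to 10.23 in C10 WT OMA1-/- hearts, and 12.21 to 13.05 in C10 S59L OMA1+/- hearts against 9.28 to 9.88 in C10 WT OMA1+/- hearts. Of 7 endothelial markers, 6 fell in C10 G58R OMA1-/- and in C10 S59L OMA1+/- hearts and 4 in C10 S59L OMA1-/- hearts. In the last the list was mixed, with log2 fold changes from -3.22 to 1.86. C10 S59L OMA1-/- replicate 3 had an endothelial mean of 12.85, above the 12.63 to 12.71 of its WT hearts. Of 7 cardiomyocyte markers, 3 fell in C10 G58R OMA1-/-, 4 in C10 S59L OMA1-/- and 2 in C10 S59L OMA1+/- hearts. Adipocyte markers rose for 3 of 5 genes in C10 S59L OMA1-/- hearts (median log2 fold change 4.94) and fell for 1 of 5 in C10 G58R OMA1+/- hearts (median -3.03). The rise came mainly from C10 S59L OMA1-/- replicates 1 and 2, with adipocyte means of 11.30 and 12.90. Replicates 3 and 4 had 6.16 and 6.18, below the background of 6.59, against 5.09 to 5.33 in C10 WT OMA1-/- hearts at 20 weeks. Of 3 brown adipocyte markers, 1 rose in C10 S59L OMA1-/- and 1 in C10 G58R OMA1-/- hearts. Of 6 fibroblast markers, 1 rose in C10 S59L OMA1-/- and 2 in C10 S59L OMA1+/- hearts. These fibroblast counts are near the shares of all genes or too small to read. Nothing is read from them, from the brown adipocyte counts or from the 2 cardiomyocyte markers in C10 S59L OMA1+/- hearts. Of 6 lymphocyte markers, 1 was called lower with G58R when OMA1 was absent, and 2 when 1 Oma1 allele was present. Their mean signal stayed below the background of 6.59 on every 14-week array, the highest being 6.20 in a WT heart. No lymphocyte marker exceeded background on any G58R array, so these calls are not read as a change in lymphocytes. No mesothelial marker was called in these 4 comparisons. The part of these markers in the changes of the coenzyme Q genes was not tested. In whole-heart RNA, fewer cells of a type and less RNA per cell cannot be told apart.

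Pdss2, the subunit that partners Pdss1 in making the prenyl tail, varied little. Its 8 group means spanned 0.63 on the log2 scale, and single hearts lay between 7.68 and 9.19. The largest change of mutant against WT was in C10 S59L OMA1-/- hearts, with 8.30, 8.06, 7.68 and 8.55, against 8.63, 8.61, 9.19 and 8.67 in C10 WT OMA1-/- hearts at 20 weeks. All 4 mutant hearts were below all 4 WT hearts, yet the log2 fold change of -0.63 ± 0.24 (SE, n = 4 per group) did not pass the test over all genes (limma adjusted p = 0.059; past it under 3 of 10 alternative settings), and in the presence of 1 Oma1 allele it was 0.05 ± 0.24. Pdss2 in C10 G58R OMA1+/- hearts was at -0.10 over all arrays and -0.50 with the adipocyte marker mean as a covariate, called in neither fit. It was -0.54 without the arrays of high adipocyte markers, which left 1 C10 WT OMA1+/- heart. Coq2, the transferase that joins tail and ring, had positive fold changes in all 4 comparisons of mutant with WT (negative, at -0.057, in C10 S59L OMA1+/- hearts with quantile normalization), the largest being 0.54 ± 0.24 in C10 G58R OMA1+/- hearts (limma adjusted p = 0.25), where single hearts had 11.55, 12.05, 11.20 and 11.42, against 11.14, 11.34, 11.09 and 10.49 in C10 WT OMA1+/- hearts. The groups overlapped in every comparison of Coq2. With the adipocyte marker mean as a covariate, Coq2 was called in C10 G58R OMA1+/- hearts (1.14 ± 0.26, limma adjusted p = 0.012). Without the arrays of high adipocyte markers, which left 1 C10 WT OMA1+/- heart, it was 1.07.

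Coq6, the monooxygenase that hydroxylates the ring early in the pathway, was higher in mutant hearts of both kinds. It had 10.11, 9.27, 9.55 and 10.004 in C10 G58R OMA1-/- hearts, against 8.30, 8.66, 8.52 and 7.98 in C10 WT OMA1-/- hearts. The groups did not overlap, and the fold change was 1.37 ± 0.21 on the log2 scale, or 2.58-fold (limma adjusted p = 1.1e-04). In C10 G58R OMA1+/- hearts Coq6 was 9.02, 9.17, 9.10 and 9.11, against 8.31, 8.75, 8.87 and 8.42 in C10 WT OMA1+/- hearts. These groups did not overlap either, but the difference of 0.51 ± 0.21 missed the threshold (limma adjusted p = 0.22). In C10 S59L OMA1+/- hearts it was 8.87, 9.07, 8.95 and 8.95, against 7.24, 8.5, 8.05 and 7.92 in C10 WT OMA1+/- hearts, again without overlap. This was a change of 1.03 ± 0.31 (limma adjusted p = 0.015), which missed the threshold without C10 WT OMA1+/- replicate 1, the lowest heart (0.80, adjusted p = 0.061). In C10 S59L OMA1-/- hearts it was 8.78, 8.55, 8.95 and 10.11, against 7.69, 8.19, 8.55 and 7.90 in C10 WT OMA1-/- hearts, where replicate 4 of the mutant stood above the rest and the lowest mutant heart lay just under the highest WT heart, so that these groups overlapped. The change of 1.01 ± 0.31 (limma adjusted p = 0.020) was 0.68 without mutant replicate 4 (adjusted p = 0.072) and 0.88 without C10 WT OMA1-/- replicate 1 (adjusted p = 0.066). It was also not called in a fit of only the 8 arrays compared (adjusted p = 0.058).

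Coq5, the C-methyltransferase of the ring, showed the widest range of group means of any member, 3.25 on the log2 scale. In C10 G58R OMA1-/- hearts it had 15.35, 15.25, 15.41 and 14.76, against 12.13, 12.54, 12.56 and 12.15 in C10 WT OMA1-/- hearts. Every mutant heart was above every WT heart, with a fold change of 2.85 ± 0.45 on the log2 scale, or 7.20-fold (limma adjusted p = 1.2e-04). In C10 G58R OMA1+/- hearts it was 15.98, 15.51, 14.12 and 14.31, against 14.51, 14.67, 13.44 and 12.26 in C10 WT OMA1+/- hearts. Here the groups overlapped and the change of 1.26 ± 0.45 was not called (limma adjusted p = 0.15). The first 3 of those WT hearts are the ones of high adipocyte marker signal, and the remaining WT heart was the lowest of the 8. Without the arrays of high adipocyte markers, which left a single C10 WT OMA1+/- heart whose spread is taken to be that of the other groups, the change was 2.73 ± 0.54 (limma adjusted p = 0.0063), and with the adipocyte mean as a covariate it was 2.45 ± 0.46 (adjusted p = 0.0043). Both fits lean on C10 WT OMA1+/- replicate 4, whose adipocyte mean was 6.43, beside 10.26, 10.95 and 10.68 in the rest of its group. They are therefore not independent of each other. The part of adipocyte RNA in the Coq5 signal was not tested beyond these values.

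In the S59L cohort no WT heart had high adipocyte markers, but C10 S59L OMA1-/- replicates 1 and 2 and C10 S59L OMA1+/- replicate 1 did. Coq5 was separated from WT on both OMA1 backgrounds. It had 13.40, 12.59, 13.19 and 15.03 in C10 S59L OMA1-/- hearts, against 11.56, 12.28, 12.20 and 11.74 in C10 WT OMA1-/- hearts. It had 13.35, 14.34, 14.14 and 14.24 in C10 S59L OMA1+/- hearts, against 11.53, 11.76, 12.45 and 12.26 in C10 WT OMA1+/- hearts. Neither pair of groups overlapped, although C10 S59L OMA1-/- replicate 4 stood well above the other 3 mutant hearts. The fold changes were 1.61 ± 0.39 without OMA1 (3.04-fold, limma adjusted p = 0.0057) and 2.02 ± 0.39 with 1 Oma1 allele (4.05-fold, limma adjusted p = 7.9e-04). Without replicate 4 the first of these was 1.11 and still called. With the adipocyte covariate the changes were 2.29 without OMA1 and 2.35 with 1 Oma1 allele. Without the arrays of high adipocyte markers they were 2.16 and 2.24.

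The last ring-modifying enzymes changed little. Coq7, the hydroxylase that gives the penultimate intermediate, had group means between 13.09 and 13.63, no call in any of 12 comparisons, and overlapping groups in all 8 of those between 2 groups. Coq3, the O-methyltransferase that also adds the final methyl group, was 13.52, 13.58, 13.76 and 13.57 in C10 G58R OMA1-/- hearts, against 13.03, 13.19, 13.16 and 12.91 in C10 WT OMA1-/- hearts. These groups did not overlap, and the change of 0.53 ± 0.20 was called at an adjusted p of 0.045 in limma. The call was lost when any of the 8 hearts compared was left out (adjusted p from 0.055 to 0.10), without C10 G58R OMA1+/- replicate 1 or 3 (0.051 and 0.053), in a fit of all 32 arrays (0.16), with quantile normalization, where the change was 0.20 (0.47), and with the adipocyte covariate (0.052). In the other comparisons of mutant with WT, Coq3 changed by -0.29 to 0.00 and was not called.

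**Figure D2:**
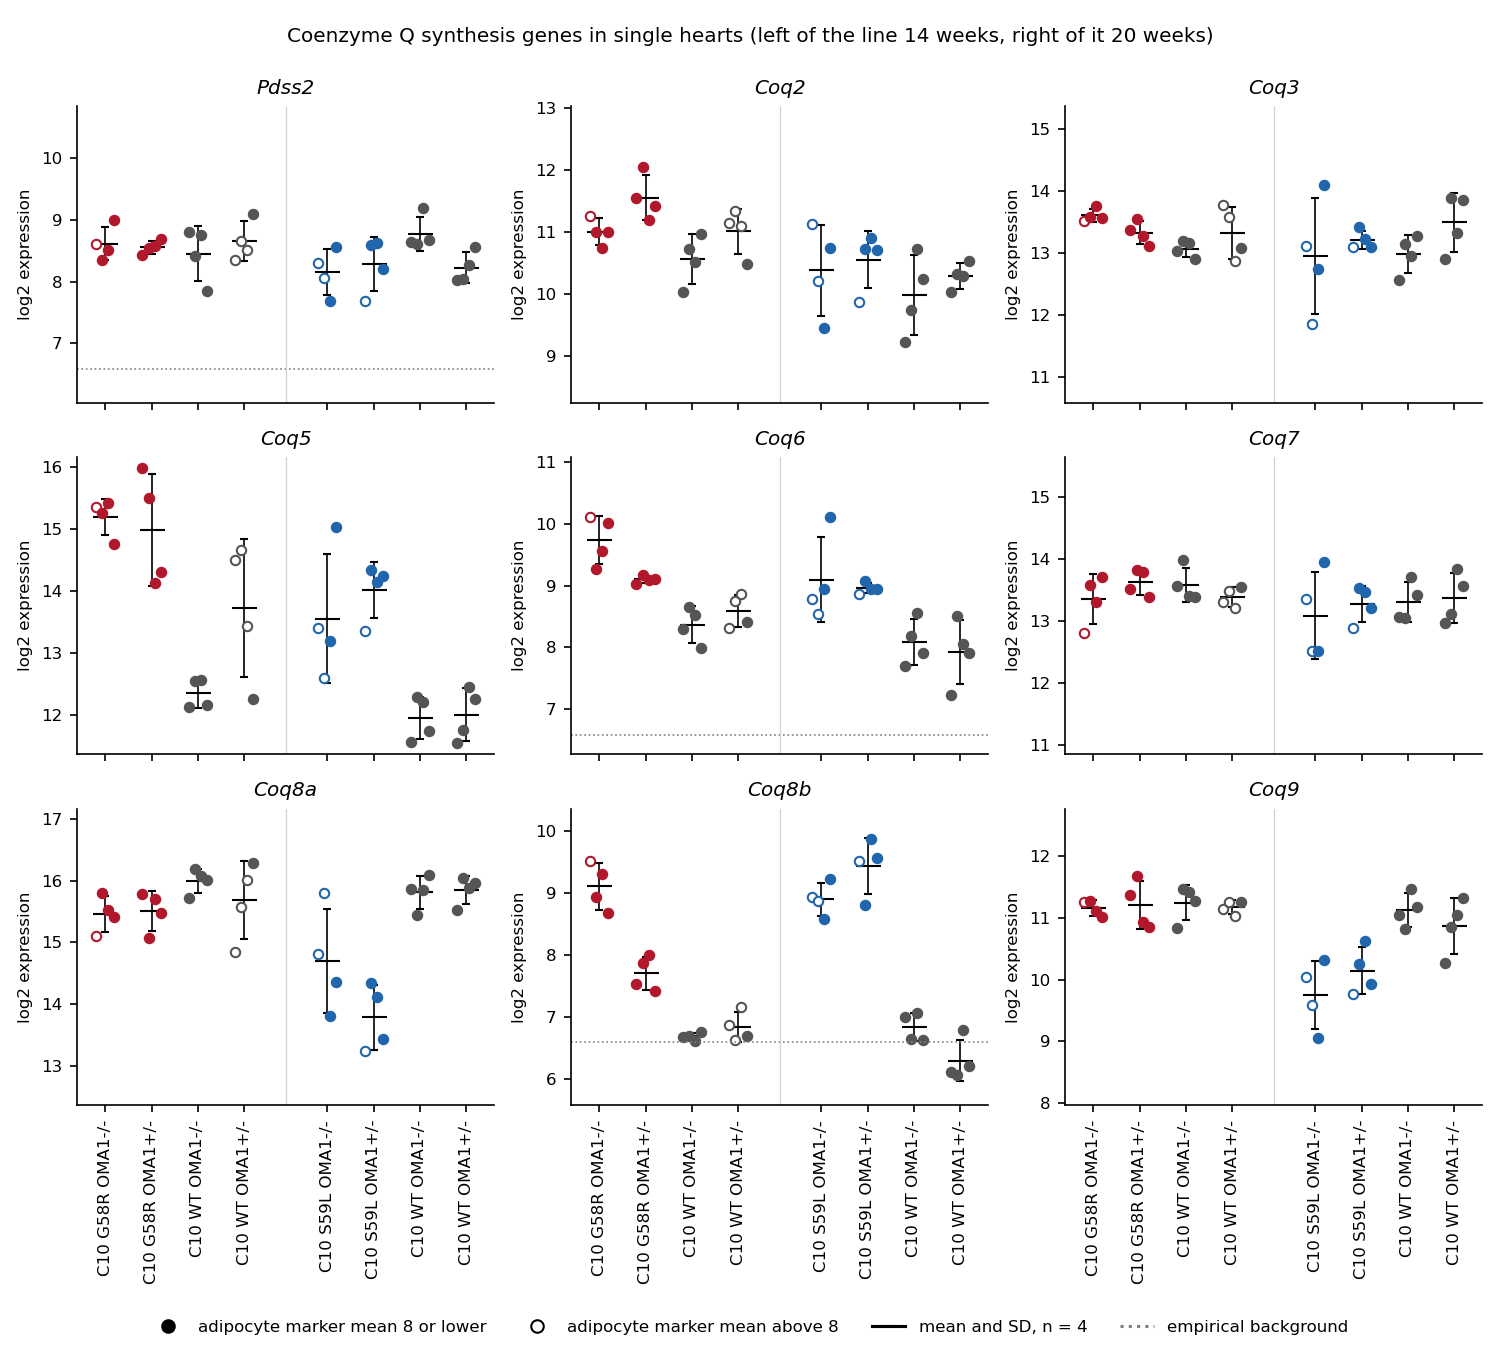
Log2 expression (y axis, the same span of 4.8 in each panel) of the 9 genes in all 32 hearts by group (x axis), 14-week groups left and 20-week groups right of the grey line; points are single hearts, bars the mean and SD (n = 4), open points the 7 arrays of high adipocyte markers. Coq5 and Coq8b lie higher in the mutant groups, Coq8a and Coq9 lie lower in the C10 S59L groups, and Pdss2 and Coq7 stay within 0.63 and 0.55 across the group means.

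Coq9, the lipid-binding protein that presents the intermediate to Coq7, was lower only in the S59L cohort among these comparisons. In C10 S59L OMA1-/- hearts it had 10.04, 9.59, 9.06 and 10.31, against 11.04, 10.81, 11.46 and 11.18 in C10 WT OMA1-/- hearts. The groups did not overlap, and Coq9 fell by 1.37 ± 0.28 on the log2 scale (limma adjusted p = 0.0018). In C10 S59L OMA1+/- hearts it was 9.76, 10.25, 10.62 and 9.93, against 10.26, 10.84, 11.04 and 11.33 in C10 WT OMA1+/- hearts. These groups overlapped at one heart each, and the change of -0.73 ± 0.28 fell just short of the threshold (limma adjusted p = 0.053), passing it under 5 of 10 alternative settings. In C10 G58R hearts the change was -0.085 ± 0.20 without OMA1 and 0.04 ± 0.20 with 1 Oma1 allele. The difference between the G58R and S59L effects without OMA1 was 1.29 ± 0.35 (limma adjusted p = 0.067), so the Coq9 effects of the mutations were not shown to differ. That difference was called with quantile normalization (1.31, adjusted p = 0.037), among genes above background only (adjusted p = 0.049), and without C10 S59L OMA1-/- replicate 1 or replicate 4 (1.38 and 1.48, adjusted p = 0.049 and 0.020).

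Coq8a, the paralog that predominates in heart and skeletal muscle, fell in S59L hearts. In C10 S59L OMA1+/- hearts it had 13.25, 14.34, 14.12 and 13.44, against 15.53, 16.04, 15.88 and 15.95 in C10 WT OMA1+/- hearts. The nearest mutant heart was more than 1 unit below the nearest WT heart, and Coq8a fell by 2.06 ± 0.34 on the log2 scale, to 0.239 of the WT level (limma adjusted p = 1.7e-04). In C10 S59L OMA1-/- hearts it was 14.81, 15.80, 13.81 and 14.36, against 15.86, 15.45, 15.85 and 16.08 in C10 WT OMA1-/- hearts. Replicate 2 of the mutant lay within the WT range, and it was also the array of highest adipocyte signal (12.90) and of highest Ucp1 (16.01), the brown adipocyte uncoupling protein. The change was -1.12 ± 0.34 over all hearts (limma adjusted p = 0.019) and -1.72 without the arrays of high adipocyte markers (adjusted p = 2.7e-04). It was lost in a fit of only the 8 arrays compared (adjusted p = 0.056) and without C10 WT OMA1-/- replicate 4, C10 S59L OMA1-/- replicate 3 or replicate 4 (-1.02, -0.82 and -1.01). In C10 G58R hearts Coq8a was not called, at -0.54 ± 0.26 without OMA1 (limma adjusted p = 0.12) and -0.17 ± 0.26 with 1 Oma1 allele. The second of these was -0.63 with the adipocyte marker mean as a covariate (adjusted p = 0.22). It was -0.78 without the arrays of high adipocyte markers, which left 1 C10 WT OMA1+/- heart. The first was called with quantile normalization, at -0.79, and in a fit of only the 8 arrays compared, at -0.54 (adjusted p = 0.044 and 0.040).

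Coq8b, the other paralog, moved in the opposite direction and was the member with the smallest adjusted p in each comparison of mutant with WT. In C10 S59L OMA1+/- hearts it had 9.51, 8.81, 9.87 and 9.57, against 6.11, 6.06, 6.79 and 6.20 in C10 WT OMA1+/- hearts. The mutant hearts were at least 2 units above the highest WT heart, the change was 3.15 ± 0.24 (limma adjusted p = 8.8e-08), and 3 of the 4 WT values, and their mean of 6.29, lay below the background of 6.59. The size of this change therefore rests on WT signals that were not measured above background. With those 3 values raised to the background, a setting chosen after seeing the data, the change was 2.80 ± 0.22 (6.97-fold, limma adjusted p = 1.2e-07). In C10 S59L OMA1-/- hearts Coq8b was 8.93, 8.87, 8.58 and 9.22, against 6.99, 6.65, 7.06 and 6.63 in C10 WT OMA1-/- hearts. The change was 2.07 ± 0.24 (4.20-fold, limma adjusted p = 1.2e-05). Here all 8 values were above background, the WT values of 6.65 and 6.63 only just.

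In the G58R cohort Coq8b was 9.52, 8.94, 9.31 and 8.68 in C10 G58R OMA1-/- hearts, against 6.67, 6.69, 6.61 and 6.76 in C10 WT OMA1-/- hearts, a change of 2.43 ± 0.20 (5.38-fold, limma adjusted p = 1.6e-07). It was 7.52, 7.87, 8.0 and 7.42 in C10 G58R OMA1+/- hearts, against 6.87, 6.63, 7.16 and 6.68 in C10 WT OMA1+/- hearts, a change of 0.86 ± 0.20 (1.82-fold, limma adjusted p = 0.036). No group pair overlapped. All of these WT values lay above the background of 6.59, those of C10 WT OMA1-/- hearts (6.61 to 6.76) only just. The sizes of these changes, and the difference between them, therefore rest on WT signals near background. The smaller change was lost in a fit of only the 8 arrays compared (adjusted p = 0.14) and on leaving out replicate 1, 2 or 4 of the WT group or replicate 1, 2 or 3 of the mutant group (adjusted p from 0.054 to 0.12), with fold changes between 0.77 and 0.92.

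**Figure D3:**
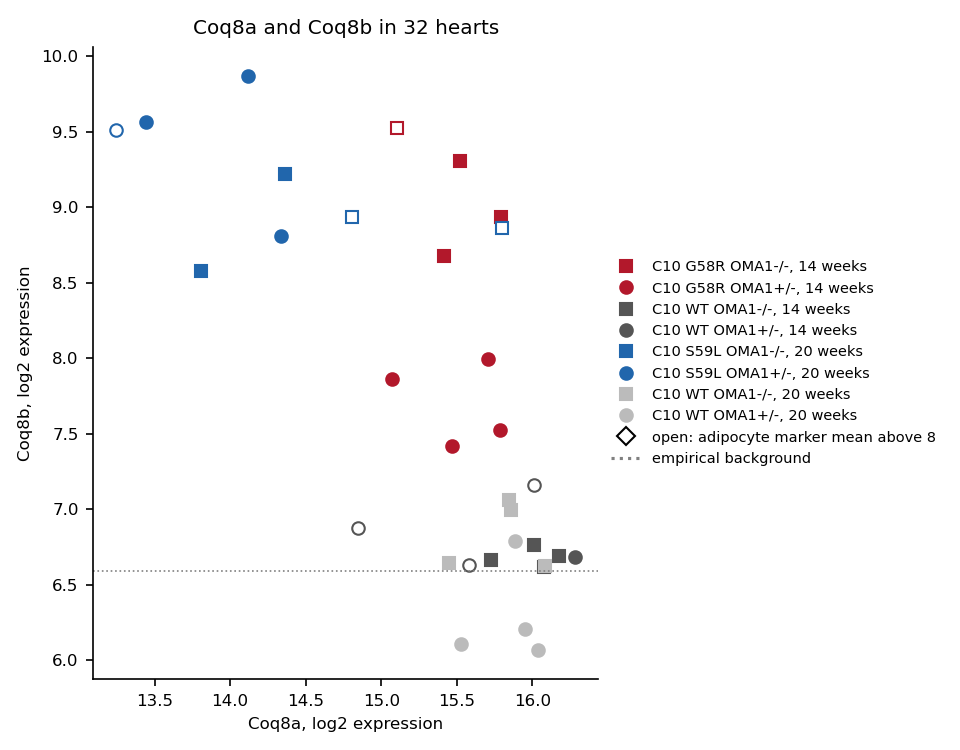
Coq8b (y axis) against Coq8a (x axis), both in log2 expression, in each of 32 hearts; squares are OMA1-/- and circles OMA1+/- hearts, colours give the mutation and cohort, and open symbols mark the 7 arrays of high adipocyte markers. C10 S59L hearts lie at upper left except OMA1-/- replicate 2, at 15.80 for Coq8a, C10 G58R OMA1-/- hearts lie at upper right, and C10 G58R OMA1+/- hearts (7.42 to 8.0 for Coq8b) lie between them and the WT hearts (6.06 to 7.16). The axes belong to different probe sets and cannot be set against each other.

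The upstream sequences of Coq6, Coq8a and Coq9, which rose, fell and fell in S59L OMA1-/- hearts, are printed here because the data place these genes on opposite sides of the same comparison. Each is the 250 bases before an annotated start in RefSeq (GRCm38.p6), read 5′ to 3′ on the strand of the gene, and 7 of the 9 measured members had an entry, Coq5 and Coq8b lacking one. Coq3 and Coq8a had 2 entries each, of which the one nearest the outer end of the gene was taken. Which start the heart uses is not known here. Capitals mark CCAAT boxes, the letters bound by NF-Y, on either strand (CCAAT or ATTGG).
Coq6, chr12:84361718-84361967, plus strand: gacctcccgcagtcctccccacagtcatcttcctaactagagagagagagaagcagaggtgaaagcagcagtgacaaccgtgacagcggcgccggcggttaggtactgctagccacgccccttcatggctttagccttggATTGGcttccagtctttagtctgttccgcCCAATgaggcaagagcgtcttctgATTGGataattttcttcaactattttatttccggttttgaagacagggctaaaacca
Coq8a, chr1:180196021-180196270, minus strand: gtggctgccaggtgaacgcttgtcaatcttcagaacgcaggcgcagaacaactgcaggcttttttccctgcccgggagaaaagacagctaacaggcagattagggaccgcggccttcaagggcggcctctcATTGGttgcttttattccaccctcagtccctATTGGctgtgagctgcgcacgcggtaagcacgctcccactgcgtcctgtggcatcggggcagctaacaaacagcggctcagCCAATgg
Coq9, chr8:94838163-94838412, plus strand: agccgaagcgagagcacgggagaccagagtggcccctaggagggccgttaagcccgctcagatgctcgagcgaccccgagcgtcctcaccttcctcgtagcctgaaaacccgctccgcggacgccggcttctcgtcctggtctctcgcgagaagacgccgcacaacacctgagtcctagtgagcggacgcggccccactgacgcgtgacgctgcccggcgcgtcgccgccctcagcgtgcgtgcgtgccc

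Coq6 and Coq8a each held 3 CCAAT boxes in these 250 bases, Coq7 held 2, and Pdss2, Coq2, Coq3 and Coq9 held none. Of 32851 promoter entries of this length, 33.8% held at least 1 and 2.79% held 3 or more. Another 3 motifs, whose letters share no core with the CCAAT box, were searched on both strands: the ATF4-C/EBP composite element (TGATGNAA, in 3.45% of all entries), the cAMP response element (TGACGTCA, 1.55%) and the ERR half-site (AAGGTCA, 4.08%). None of these letters was found in the 250 bases of the 7 members, which says nothing of the factors. Coq9 was the richest of the 3 in G and C, with 69.2% and 34 CpG dinucleotides, beside 58% and 14 in Coq8a and 50.8% and 10 in Coq6.

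Comparisons of OMA1-/- with OMA1+/- hearts of the same C10 genotype called few of these genes, and none in C10 WT hearts. Within C10 G58R hearts, OMA1-/- relative to OMA1+/-, 1 of 9 members was called while 4.49% of all genes were. This was Coq8b, which rose by 1.41 ± 0.20 on the log2 scale (2.66-fold, limma adjusted p = 3.6e-04), all 4 OMA1-/- hearts (8.68 to 9.52) lying above all 4 OMA1+/- hearts (7.42 to 8.0). Coq6 also had groups that did not overlap, with a difference of 0.63 ± 0.21 that was not called (limma adjusted p = 0.11). Within C10 WT hearts at 14 weeks no member was called in limma, as no gene was (0%, with 2276 genes at an unadjusted p under 0.05). Coq5 was 1.37 ± 0.45 lower there in OMA1-/- hearts (adjusted p = 0.32), while the difference was 0.09 without the arrays of high adipocyte markers. It was called, at -1.86, when C10 WT OMA1+/- replicate 4 was left out, the one heart of its group with low adipocyte markers. Within C10 S59L hearts, where 0.846% of all genes were called, and within C10 WT hearts at 20 weeks, where 0.00513% were, no member was called. The fold changes lay between -0.54 for Coq8b and 0.91 for Coq8a in the S59L hearts, of which the Coq8a difference had an adjusted p of 0.28 in limma.

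The change of the mutation effect with OMA1 was tested as an interaction. For G58R it was called for 1 of 9 members beside 3.13% of all genes. Coq8b responded to G58R by 1.57 ± 0.29 more in OMA1-/- than in OMA1+/- hearts (limma adjusted p = 0.0064). The value was 1.28 without the arrays of high adipocyte markers (adjusted p = 0.20, with 1 C10 WT OMA1+/- heart left) and 1.26 with the adipocyte mean as a covariate (adjusted p = 0.18), neither past the threshold. Coq5 had an interaction of 1.59 ± 0.63 (limma adjusted p = 0.18), which was 0.07 without those arrays and was called, at 2.07, without C10 WT OMA1+/- replicate 4. For S59L no member was called, beside 0.0718% of all genes. The Coq8b value there was -1.08 ± 0.34 (limma adjusted p = 0.33), or -0.73 with the WT values below background raised to it, and the opposite signs of the Coq8b interaction in the 2 cohorts were not tested against each other.

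The G58R effect minus the S59L effect, each against its own WT hearts, asked whether the mutations differed, although mutation and age cannot be told apart in this design. With 1 Oma1 allele, 2 of 9 members were called beside 8.33% of all genes. Coq8b rose less with G58R than with S59L, with a difference of -2.29 ± 0.31 (limma adjusted p = 1.7e-05). That value rests in part on the 3 C10 WT OMA1+/- hearts below background at 20 weeks, and with these raised to the background it was -1.94 ± 0.29 (adjusted p = 6.9e-05). Coq8a had a difference of 1.89 ± 0.44 (adjusted p = 0.0065), from changes of -0.17 with G58R and -2.06 with S59L. Without the arrays of high adipocyte markers the G58R change was -0.78, the S59L change -1.88 and the Coq8a difference 1.11. That fit left 1 C10 WT OMA1+/- heart at 14 weeks, whose Coq8a of 16.29 was the highest of its group. Whether the call holds there is therefore not judged. Without OMA1 no member was called, beside 0.933% of all genes. The differences there were 0.36 ± 0.31 for Coq8b and 0.57 ± 0.44 for Coq8a.

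**Figure D4:**
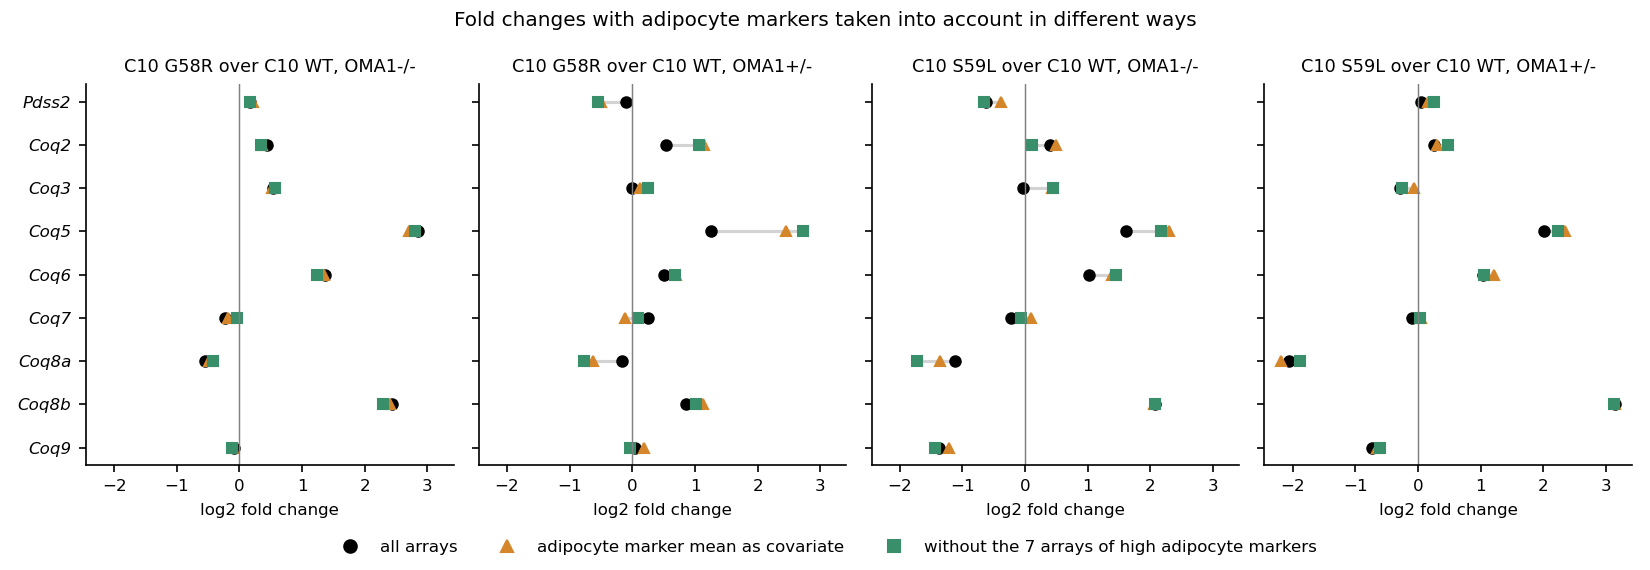
Log2 fold change (x axis) of each of the 9 genes (rows) in C10 mutant over C10 WT hearts, in 4 panels, from all arrays (circles), with the adipocyte marker mean as a covariate (triangles) and without the 7 arrays of high adipocyte markers (squares). The points differ most for Coq5 in C10 G58R OMA1+/- hearts (1.26, 2.45 and 2.73) and lie close together for Coq8b in C10 S59L OMA1+/- hearts (3.15, 3.14 and 3.12).

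Taking adipocyte markers into account moved the count of called members most in C10 G58R OMA1+/- hearts, a comparison in which 3 of the 4 WT hearts carried high adipocyte signal. The adipocyte marker mean was 5.64 to 7.06 in C10 G58R OMA1+/- hearts, against 6.43 to 10.95 in C10 WT OMA1+/- hearts. With the covariate, 3 members rose (Coq2, Coq5 and Coq8b) beside 10.9% of all genes, and without the 7 arrays 2 rose (Coq5 and Coq8b) beside 12.9%, so that the counts of members and of all genes went up together. Coq8b was called in all 4 comparisons of mutant with WT under both alternatives, at 1.13 and 1.02 in C10 G58R OMA1+/- hearts.

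Among genes around the pathway, Coq10a, a lipid-binding protein related to the yeast factor that coenzyme Q needs for respiration, fell in 3 of the 4 comparisons. Of 8 such other coenzyme Q genes measured, Coq10a changed by -0.99 ± 0.20 in C10 G58R OMA1-/- (limma adjusted p = 0.0012), by -1.87 ± 0.27 in C10 S59L OMA1-/- (9.3e-05) and by -1.61 ± 0.27 in C10 S59L OMA1+/- hearts (2.2e-04), and it was the only one called in either S59L comparison. In these 3 comparisons 15.3%, 14% and 17.9% of all genes fell. In C10 G58R OMA1-/- hearts the phosphatase gene Pptc7 rose by 0.64 ± 0.21 and Hpdl, whose group means were both below background, was also called. Only Hpd was called in C10 G58R OMA1+/- hearts, with both means below background, and it was lost with the adipocyte covariate (adjusted p = 0.060) and without the arrays of high adipocyte markers (0.096), while Coq10a was at 0.20 ± 0.20. Its list had a median of 0.23, 0.31, -0.07 and 0.16 in C10 G58R OMA1-/-, C10 G58R OMA1+/-, C10 S59L OMA1-/- and C10 S59L OMA1+/- hearts.

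The mevalonate pathway supplies the isoprenoid units of the tail. Of its 7 genes measured, 3 rose in C10 G58R OMA1-/- hearts, 3 in C10 S59L OMA1-/- hearts, 1 in C10 S59L OMA1+/- hearts and none in C10 G58R OMA1+/- hearts, and none fell, beside 18.3%, 15.8%, 18.6% and 1.51% of all genes called higher in that order. With the adipocyte covariate these counts were 4, 1, 2 and 0 of 7, the last beside 7.08% of all genes. Without the arrays of high adipocyte markers they were 4, 1 and 1 of 7 in C10 G58R OMA1-/-, C10 S59L OMA1-/- and C10 S59L OMA1+/- hearts. That setting left 1 C10 WT OMA1+/- heart at 14 weeks, so no count is given for C10 G58R OMA1+/- hearts. Hmgcs1, the synthase ahead of the rate-limiting reductase, rose in 3 of the 4, by 1.28 ± 0.26 in C10 G58R OMA1-/-, 0.89 ± 0.30 in C10 S59L OMA1-/- and 0.97 ± 0.30 in C10 S59L OMA1+/- hearts (limma adjusted p = 0.0011, 0.035 and 0.019). Its change in C10 S59L OMA1-/- hearts was 0.40 without the 2 mutant arrays of high adipocyte markers (adjusted p = 0.34) and 0.39 with the adipocyte covariate (0.36), neither called. In C10 G58R OMA1+/- hearts the Hmgcs1 change was 1.28 without the high adipocyte arrays, against that single WT heart. No gene of this list was called there with the covariate. Ggps1, which makes geranylgeranyl diphosphate, rose by 1.11 ± 0.26 in C10 G58R OMA1-/- and 0.92 ± 0.22 in C10 S59L OMA1-/- hearts (limma adjusted p = 0.0033 and 0.0052).

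Enzymes that use coenzyme Q did not share a direction. Of 10 dehydrogenases that reduce it, 2 rose and 1 fell in C10 G58R OMA1-/- and in C10 S59L OMA1-/- hearts, and 1 rose and 1 fell in C10 S59L OMA1+/- hearts. Of all genes, 18.3%, 15.8% and 18.6% were called higher and 15.3%, 14% and 17.9% lower in the same comparisons, shares near those of the list, and nothing is read from its counts. Prodh, proline dehydrogenase, was the one that fell each time (-0.62, -1.27 and -0.96 in that order, the first lost without the high adipocyte arrays, at -0.53 with adjusted p = 0.089), Sdhd, a membrane subunit of complex II, rose in both OMA1-/- comparisons (1.19 and 0.95), and Sqor, which oxidises sulfide, rose in both S59L comparisons (1.49 without and 1.47 with an Oma1 allele). Of 9 complex III subunits, 3 fell and 1 rose in C10 G58R OMA1-/- hearts, and 4 fell and 1 rose in each S59L comparison. The small subunits Uqcr11 and Uqcrq fell in all 3, with log2 fold changes of -1.55 ± 0.27, -1.72 ± 0.25 and -2.12 ± 0.25 for Uqcr11 in that order (limma adjusted p = 2.8e-04, 1.2e-04 and 8.1e-06). The core subunit Uqcrc2 was the one that rose, by 2.18 ± 0.44 in C10 G58R OMA1-/- and 2.58 ± 0.54 in C10 S59L OMA1+/- hearts (limma adjusted p = 0.0011 and 0.0014). No gene of either list was called in C10 G58R OMA1+/- hearts in limma over all arrays. Leaving out the high adipocyte arrays kept 1 C10 WT OMA1+/- heart there, so no call is given. The changes in that fit were 1.57 for Sdhd, 2.48 for Uqcrc2, -0.86 for Uqcrq and -1.26 for Uqcr11. With the covariate Sdhd and Uqcrc2 were called higher, beside 7.08% of all genes.

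For 6 members the group means spanned at least 1 on the log2 scale, and for each of them the genes of most similar pattern were sought by the root mean square (RMS) difference between the 8 centred group means, among 9904 other genes above background. Coq5 was closest to Mrpl34, a protein of the large mitochondrial ribosomal subunit (RMS 0.20, beside a median of 1.11 over all genes compared), then Mospd1 and Rnaseh2b. Coq6 was closest to Gfpt1, the first enzyme of hexosamine synthesis (RMS 0.08, beside 0.55), then Nosip and Abraxas2. Coq8b was closest to the protease inhibitor Cstb (RMS 0.19, beside 1.11), then Arhgap1 and Mfge8. Of the members that fell, Coq8a was closest to the transcription factor gene Camta1 (RMS 0.20, beside 0.81), then Rgs5 and Ppip5k2, and Coq9 to Srl, a protein of the sarcoplasmic reticulum (RMS 0.16, beside 0.65), then Mfn1 and Rnf128. Coq2 was closest to Dand5, Zfp770 and Smim8 (RMS 0.12, beside 0.54). These likenesses are over 8 groups of 2 ages and describe pattern alone. The closest of many genes lies below the median by construction, so the medians give scale only. For Coq2 the group means at 14 weeks all lay above those at 20 weeks, the nearest at 10.56 and 10.55.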

How the data were processed

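Heart RNA (Direct-zol kit) of 32 mice was hybridised to Clariom S Mouse arrays, 1 biotin-labelled sample each. The authors deposited log2 gene-level values, summarised per the study's methods by SST-RMA in Transcriptome Analysis Console. Whether all arrays were normalized together, and the genome build, are not given in the sources used here. Of 28846 probe sets, 6640 were controls, 19572 had 1 symbol, 0 had several and 2634 had none. The probe set of highest mean represented each of 19505 genes (55 had several). Groups came from the sample labels. Within each cohort of 16 arrays the 4 groups were fitted by limma 3.58.1 (R 4.3.3, lmFit, eBayes, two-sided) after the study's own eBayes analysis, with Benjamini-Hochberg adjustment over all genes. The differences between G58R and S59L effects used all 32 arrays. In all, 12 comparisons were made, and each fit was tested on simulated data. Alternatives were other sets of arrays in the fit, sex, the replicate number, quantile normalization, averaged probe sets, a background filter, trended robust eBayes, the adipocyte mean (as covariate, or leaving out arrays above 8) and leaving out each array. All members were named, with at most the 3 genes of smallest p in each other list. The members, gene lists and marker lists were chosen with earlier results of these data known. Arrays give no read depth, and 4 hearts per group limit the precision.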

Additional observations from a re-analysis of the deposited data

Results flagged for a closer look

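The 9 genes in 8 groups of 4 gave 72 sets of values, of which 1 held a heart far from its group. Pdss2 was 9.19 in C10 WT OMA1-/- replicate 3 at 20 weeks, while the other 3 hearts lay between 8.61 and 8.67. Chance alone gives such a gap in about 1 of 20 groups.

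Of 36 differences between effects tested for the members, 3 passed the adjusted threshold in limma. The G58R effect on Coq8b was 1.57 ± 0.29 larger in OMA1-/- than in OMA1+/- hearts on the log2 scale (adjusted p = 0.0064), but was not called without the arrays of high adipocyte markers (1.28, adjusted p = 0.20) or with the adipocyte mean as a covariate (1.26, adjusted p = 0.18). With 1 Oma1 allele, the G58R effect minus the S59L effect was 1.89 ± 0.44 for Coq8a (adjusted p = 0.0065) and -2.29 ± 0.31 for Coq8b (adjusted p = 1.7e-05). Without the arrays of high adipocyte markers the Coq8a value was 1.11 and not called (adjusted p = 0.19). The Coq8b value was -1.94 when the WT signals below background were raised to it (adjusted p = 6.9e-05). The hearts of the 2 mutations also differed in age.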

How the results depend on the processing

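Of the members called in a comparison, 18 calls in all, each kept its direction in every alternative fit, and 9 of 175 such values lost the call, as did 22 of 288 with a single array left out. Values without a call were less stable, 12 of 264 changing sign under an alternative and 15 passing the threshold. In C10 G58R OMA1+/- against C10 WT OMA1+/- hearts the count of called members was 0 with only the groups compared. It was 3 with the adipocyte mean in the model and 0 to 1 with an array left out. The genes called were 387 in the report's fit and 2121 after adding the covariate. Dropping the arrays of high adipocyte markers left 1 C10 WT OMA1+/- heart at 14 weeks. No count is given for that setting in comparisons that use this group. For the interaction of G58R and OMA1 loss the count was 0 with the adipocyte covariate and 1 to 2 with an array left out. It was 3 for C10 S59L OMA1-/- with only the groups compared, and 0 to 1 for OMA1 loss in C10 WT hearts at 14 weeks with an array left out. For G58R minus S59L without OMA1 it was 1 with quantile normalization or the background filter and 0 to 1 with an array left out.

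Sign changes were all of uncalled values. With quantile normalization, which moved the median change of all genes in C10 G58R OMA1-/- hearts to 0.06 and of C10 S59L OMA1+/- hearts to -0.03 (beside -0.10 and -0.15), Coq3 and Coq9 were -0.13 and -0.11 in C10 G58R OMA1+/- hearts and Pdss2 and Coq2 were -0.046 and -0.057 in C10 S59L OMA1+/- hearts. With the adipocyte covariate Coq7 was -0.11 in C10 G58R OMA1+/-, 0.057 in C10 S59L OMA1+/- and 0.10 in C10 S59L OMA1-/- hearts, and Coq3 was 0.43 in the last. Without the high adipocyte arrays Coq9 was -0.043 in C10 G58R OMA1+/-, Coq7 was 0.033 in C10 S59L OMA1+/-, Coq3 was 0.44 in C10 S59L OMA1-/- hearts, and Coq5 with OMA1 loss in C10 WT hearts at 14 weeks was 0.091. With an array left out, C10 G58R OMA1+/- hearts gave -0.20 to 0.049 for Pdss2, -0.15 to 0.15 for Coq3, -0.45 to 0.029 for Coq8a and -0.12 to 0.16 for Coq9. Likewise Pdss2 was -0.040 to 0.28 in C10 G58R OMA1-/- hearts, while in C10 S59L OMA1+/- hearts it was -0.060 to 0.25 and Coq7 was -0.23 to 0.057, and Coq3 was -0.41 to 0.34 in C10 S59L OMA1-/- hearts. The cause of these changes was not tested. Raising Coq8b to the background in C10 WT OMA1+/- hearts at 20 weeks, chosen after seeing the data, changed no call of Coq8b.

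The replicate numbers of the titles gave no clear sign of pairing, which this check cannot exclude. The correlation of deviations between same-numbered hearts ran from -0.38 to 0.33 at 14 weeks and from -0.20 to 0.26 at 20 weeks. Between differently numbered hearts it ran from -0.45 to 0.52 and from -0.55 to 0.57. The medians were 0.052 and 0.058 for the same number, beside -0.015 and -0.021 for different numbers. With the replicate number as a block, the counts of called members were 4, 1, 5 and 4 in C10 G58R OMA1-/-, C10 G58R OMA1+/-, C10 S59L OMA1-/- and C10 S59L OMA1+/- hearts against WT, as without it. Arrays give no reads, so the signal over background sets the limit, which touches Coq8b in WT hearts. The 4 hearts of a group bound the precision of every value, and the cohorts differ in age as well as mutation.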
